A study of Sus scrofa with 4 samples.

Results

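The genes described here are 6 genes of the red cell and platelet lineages, KLF1, HBE1, PPBP, ITGA2B, GP9 and GP1BB, measured in pig spleen. Their probes were found by matching the transcript name of every probe, controls left out, with the pig RefSeq transcripts of these genes. That gave 7 of the 43603 probes on the array, 2 for KLF1 and 1 for each other gene, and 6 of the 3020 genes that could be named. Spleen RNA of Minnesota miniature swine was hybridised to 4 one-colour Agilent arrays. Wild-type spleen was on 3 arrays (WT 1, WT 2 and WT 3), and spleen of genotype IL2RG +/- was on 1. The latter is called KO here, although 1 allele was left intact. No treatment is named, and the labels give no age. KO pigs were made by TALEN cutting of IL2RG, which encodes the gamma chain shared by several interleukin receptors, followed by somatic cell nuclear transfer, so a KO animal is a clone of an edited cell colony. Whether the WT animals were clones is not given in the sources used here.

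Red cells and platelets descend from a common progenitor that the transcription factor GATA1 directs into either lineage. KLF1 is a zinc finger factor of erythroblasts that switches on globin, haem and membrane genes, and HBE1 encodes epsilon globin, the embryonic beta-type chain. Platelets are shed by megakaryocytes, which make the fibrinogen receptor from ITGA2B and ITGB3, the receptor for von Willebrand factor from GP1BA, GP1BB, GP5 and GP9, and the granule chemokine encoded by PPBP. The spleen filters and stores blood, and before birth it can also form blood cells. Red cells of mammals have lost their nucleus, whereas platelets and young red cells still carry RNA.

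Each value below is the log2 processed signal of a probe minus the 75th percentile of its array, so 0 stands for that percentile. The 4 arrays lay on 2 slides, each scanned on its own day. WT 1 shared slide 1 with KO, and WT 2 shared slide 2 with WT 3. Between 66.1% and 72.7% of spots were well above background, and the 75th percentile of the signal lay between 640 and 820 units. The slope of the spike-in controls, RNAs added in known amounts, was 1.02 on WT 1, 1.01 on KO, 1.05 on WT 2 and 1.07 on WT 3. KO was the lowest array on both probes of IL2RG, the targeted gene, at -1.98 and -3.95 against -1.49 and -2.18 on the lowest WT array. Of 13 spleen genes listed, 7 had a named probe and all 7 were well above background on every array, among them CD163, CCL19 and MS4A1. The B cell genes MS4A1 and CD79A read -4.00 and -3.90 on KO and lay between -0.13 and 1.38 on the WT arrays. CD72, another B cell gene listed, went the other way, at 2.34 on KO and between 0.29 and 1.66 on WT.

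All 6 genes were higher on both arrays of slide 2 than on both arrays of slide 1, and for each the 3 WT arrays spanned more than the difference between KO and its slide mate. KLF1 changed most, by over 100-fold between slides on 1 probe, and GP9 least. No member probe was called between KO and WT. In bulk spleen RNA, fewer cells of a lineage and less RNA per cell cannot be told apart, and this holds for every value below.

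KLF1 was read by a brighter and a dimmer probe. The processed signal of the brighter probe was 25 on WT 1, 13608 on WT 2 and 17120 on WT 3, with 71.7 on KO, and all 4 readings were well above background. On the log2 scale these were -4.68, 4.06, 4.38 and -3.17. KLF1 was thus near the bottom of the measurable range on slide 1, where the lowest signal well above background was 14.6 on WT 1 and 11.5 on KO, and among bright probes on slide 2. The mean of WT 2 and WT 3 was 478-fold above WT 1 and 168-fold above KO. The dimmer probe gave signals of 549 on WT 2 and 842 on WT 3, or -0.57 and 0.04 on the log2 scale. On WT 1 and KO it was not well above background, so it has only a bound there, and it passed the filter on dim probes through slide 2 alone. The mean of WT 2 and WT 3 on this probe was at least 36.4-fold above WT 1 and at least 46.5-fold above KO. Both probes placed the arrays of slide 2 above those of slide 1, and the dimmer probe gives no order of WT 1 and KO.

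HBE1 followed the same division with a smaller step. Its signal was 249 on WT 1, 5703 on WT 2 and 4724 on WT 3, with 1028 on KO, which are log2 values of -1.36, 2.80, 2.53 and 0.67. KO stood between its slide mate WT 1 and both arrays of slide 2. The difference between WT 3 and WT 2 was -0.28, the smallest among the members in size, whereas KO was 4.09-fold above WT 1. The beta-type globins are similar in sequence, and hybridisation of other globin RNAs to this probe was not tested.

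ITGA2B, the alpha chain of the platelet fibrinogen receptor, read 638 on WT 1 and 643 on KO, and 3487 on WT 2 and 16516 on WT 3. The log2 values were 0.00, -0.01, 2.09 and 4.33 in that order. WT 1 and KO were equal to within a log2 difference of -0.00084, less than the median variation between replicate spots of 4.32% to 7.48% of the signal. WT 3 was 4.72-fold above WT 2.

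PPBP, a platelet granule chemokine, read 77 on WT 1, 1964 on WT 2 and 10891 on WT 3, with 349 on KO. Its log2 values were -3.06, 1.27, 3.73 and -0.89. The order from low to high was WT 1, KO, WT 2, WT 3, with KO between its slide mate and slide 2. KO was 4.49-fold above WT 1, and WT 3 was 5.52-fold above WT 2.

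GP1BB and GP9 encode partner chains of the receptor for von Willebrand factor, yet their probes differed in how far they moved. GP1BB read 70.6 on WT 1, 1659 on WT 2 and 7335 on WT 3, with 100 on KO, with log2 values of -3.18, 1.02, 3.16 and -2.69. GP9 read 661 on WT 1, 1193 on WT 2 and 1956 on WT 3, with 405 on KO, with log2 values of 0.05, 0.55, 1.26 and -0.67. The WT arrays spanned 6.34 log2 units for GP1BB and 1.21 for GP9. GP9 was the only member on which KO lay clearly below WT 1, by a log2 difference of -0.72.

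**Figure D1:**
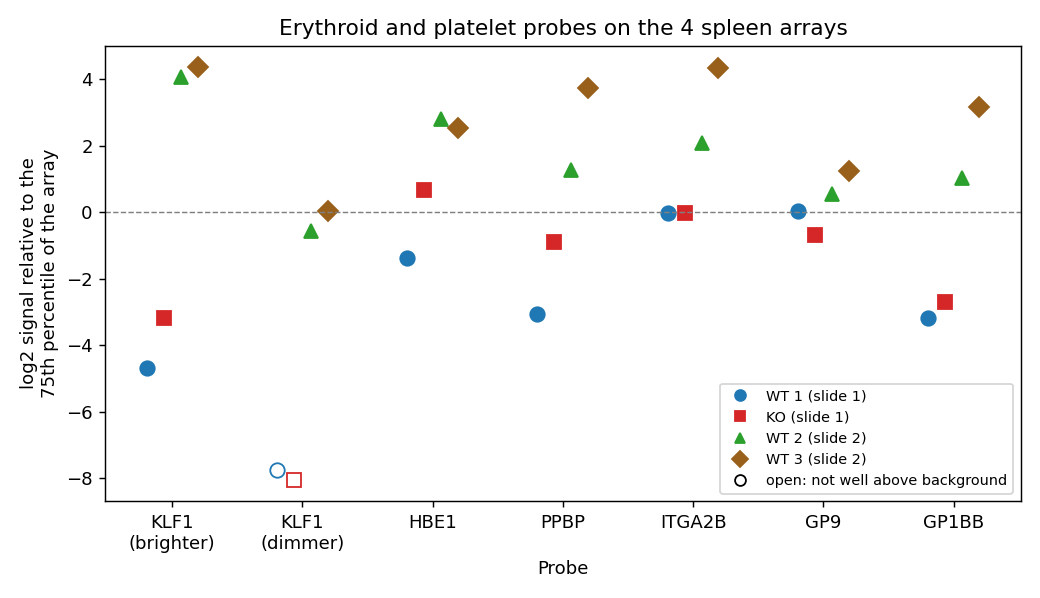
Log2 signal relative to the array's 75th percentile (vertical axis) for the 7 member probes (horizontal axis) on the 4 arrays, with open symbols where a probe was not well above background. On every probe WT 2 and WT 3 lie above WT 1 and KO, from a small step for GP9 to a gap of 7.23 log2 units on the brighter KLF1 probe.

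The comparison of KO with WT asks whether the lineages were altered in the KO spleen. Tested over all 33469 probes with limma, 0 of the 7 member probes passed an adjusted p of 0.05 with a 2-fold difference, and 0% of all probes did. At an unadjusted limma p under 0.05 there were also 0 of 7, where 11.3% of all probes lay (5.33% higher and 5.95% lower in KO), and a probe-by-probe test without shared variance also called 0. On the 6 probes well above background on every array, 6 mean differences were below 0, where 56.9% of all probes were, and 5 were lower by 2-fold or more, where 13.4% were. These differences had wide errors. KLF1 was 1.25 ± 5.14 (SD, n = 3) on the brighter probe in WT against -3.17 in KO, which differed by -4.43 ± 4.24 (SE; limma, adjusted p = 0.694). On the dimmer KLF1 probe, measured on 2 of the 3 WT arrays, WT was at least 8.28-fold higher with KO at its bound (limma, adjusted p = 0.598). HBE1 was 1.32 ± 2.33 (SD, n = 3) in WT and differed by -0.65 (limma, adjusted p = 0.904).

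Among the platelet genes, GP1BB was 0.33 ± 3.23 (SD, n = 3) in WT and differed by -3.02 ± 2.67 (SE; limma, adjusted p = 0.673). ITGA2B was 2.14 ± 2.17 (SD, n = 3) and differed by -2.15 (limma, adjusted p = 0.661). PPBP was 0.65 ± 3.44 (SD, n = 3) and differed by -1.53 (limma, adjusted p = 0.837). GP9 had the smallest WT spread, at 0.62 ± 0.61 (SD, n = 3), and differed by -1.29 ± 0.56 (SE; limma, adjusted p = 0.490). KO lay within the WT range on 4 of the 6 probes measured on every array and below it on 2, where 34.9% of all probes were below. These were GP9 and ITGA2B, and ITGA2B was level with WT 1. KO lay above all WT arrays on 0 of 6, where 27.0% of all probes did.

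Over the 6 genes the median difference was -1.84, beside -0.11 over all probes tested, and without WT 1 it was -3.30 and without WT 3 it was -1.01. Within slide 1 the median turned, though not every gene did. KO minus WT 1 had a median of 1.00 over the 6 genes, beside -0.03 over all probes, and KO was at least 2-fold above WT 1 on 3 of the 6 measured probes (KLF1 brighter probe, HBE1 and PPBP), where 7.94% of all probes were. It was above WT 1 by any amount on 4 of 6, where 48.2% of all probes were, and on 5 of 6 under quantile normalisation and the median shift, which turned ITGA2B. None of the 6 was at least 2-fold below WT 1, a count of 0, where 8.07% of all probes were. With the slide as a block, limma gave differences of 1.51 for KLF1, 2.03 for HBE1, 2.17 for PPBP and 0.50 for GP1BB. In the same limma fit ITGA2B stood at -0.00084 and GP9 at -0.72. The only replicate spread in that fit was between WT 2 and WT 3, so no p-value is given for it. The KLF1 difference within slide 1 was 0.56 under normexp, a background correction that draws dim values together. Set against WT 2 and WT 3 alone, KO was lower by a log2 difference of -7.39 for KLF1 and -1.99 for HBE1, and limma still called neither (adjusted p = 0.0737 and 0.0755). For KLF1, HBE1, PPBP and GP1BB the direction thus depended on which WT arrays were taken, whereas GP9 was lower on KO than on each WT array.

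**Figure D2:**
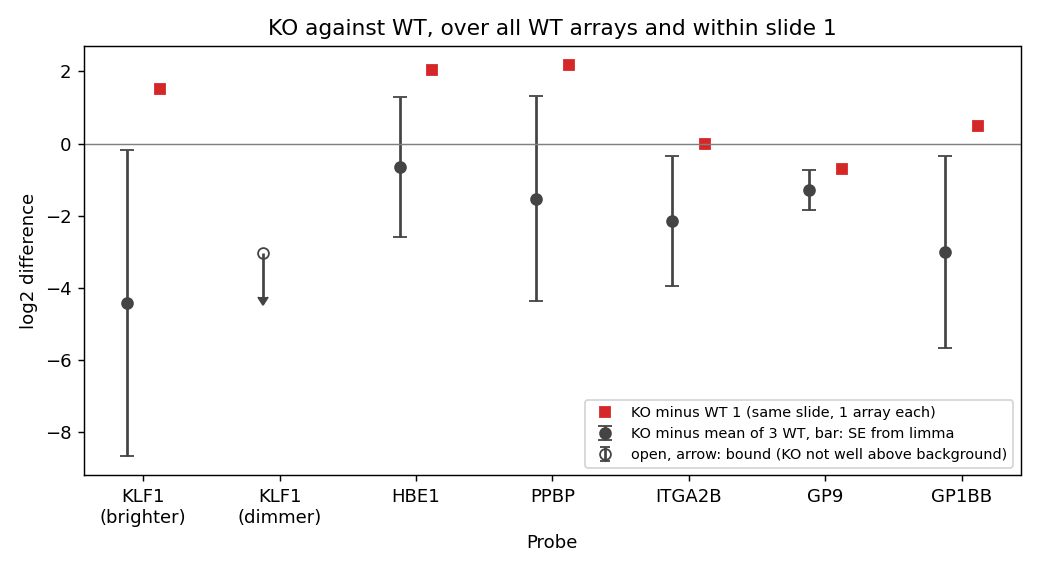
Log2 differences (vertical axis) for the 7 member probes (horizontal axis), shown as KO minus the mean of the 3 WT arrays with the standard error from limma (circles and bars) and as KO minus WT 1 on the same slide (squares, 1 array each). The filled circles run from -4.43 to -0.65 and the squares from -0.72 to 2.17, while the open circle with an arrow is only a bound for the dimmer KLF1 probe, which has no square.

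The separation between slides was measured as the lower slide 2 array minus the higher slide 1 array, so a value above 0 means that the slides did not overlap. On the 6 member probes well above background on every array, it was above 0 on 6, where 34.4% of all probes and 30.1% of those well above background on every array had such a gap. It reached 2-fold on 5 of the 6, where 7.01% of all probes, 7.04% of named genes and 3.51% of probes measured on every array did. It reached 4-fold on 4, where 1.66% and 0.781% did, and 16-fold on 1, where 0.224% and 0.120% did. The gap was 7.23 log2 units on the brighter KLF1 probe, and on the dimmer one at least 4.88. It was 3.71 for GP1BB, 2.15 for PPBP, 2.10 for ITGA2B, 1.86 for HBE1 and 0.50 for GP9, and 15.3% of all probes had a larger gap than GP9. Slide, scan day and the spleen samples changed together, so their parts in this gap cannot be told apart. The direction was the same on these 6 probes under normexp, quantile normalisation, the median shift and another percentile, and in the authors' deposited table.

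**Figure D3:**
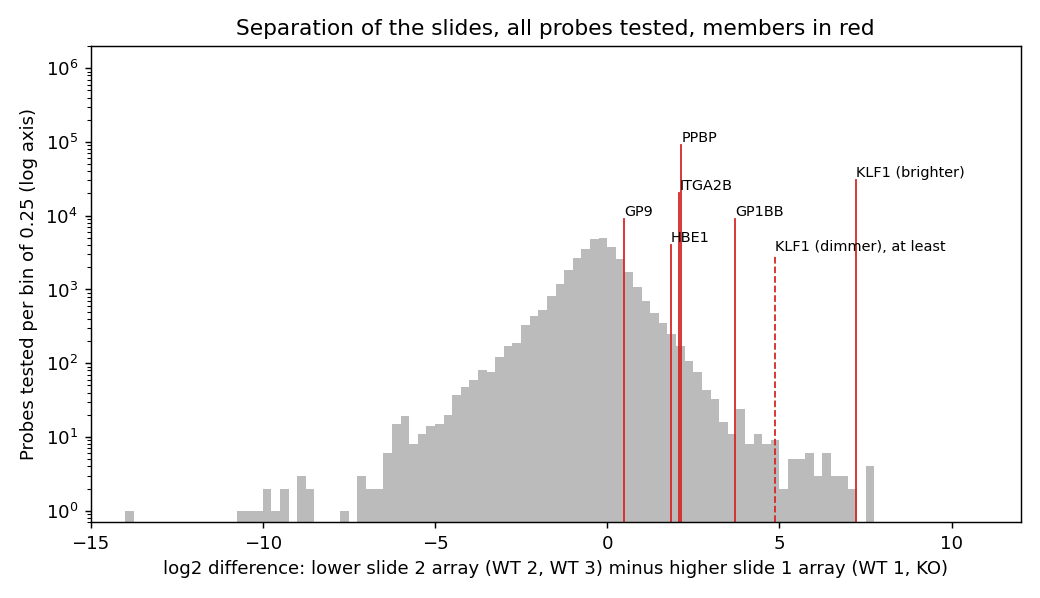
Number of probes (vertical log axis) by the log2 difference between the lower slide 2 array and the higher slide 1 array (horizontal axis), over all 33469 probes tested. Red lines mark the members and their height has no meaning: the brighter KLF1 probe lies at 7.23, near the right end of the distribution, the dimmer one is a dashed line at its bound of 4.88, and GP9 at 0.50, inside its bulk.

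Within slide 2, PPBP, ITGA2B and GP1BB were far higher on WT 3 than on WT 2, while KLF1, HBE1 and GP9 differed less. WT 3 exceeded WT 2 by 2.47 log2 units for PPBP, 2.24 for ITGA2B and 2.14 for GP1BB, and by 0.71 for GP9. At least 4-fold higher on WT 3 were 3 of the 7 member probes, all of platelet genes, where 0.959% of all probes were. None was at least 2-fold lower on WT 3, a count of 0, where 3.78% of all probes were. The erythroid probes differed by 0.33 and 0.61 for KLF1 and by -0.28 for HBE1, beside a median of 0.02 over all probes. WT 2 and WT 3 were each 1 array, so these differences have no replicate check.

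Other genes of red cell formation were read from a list of 70, of which 12 had a named probe. GATA1, TAL1, ALAS2, HBB and SLC4A1 were not among them and were not analysed here. Both slide 2 arrays were above both slide 1 arrays by at least 2-fold for 7 of the 12, beside 7.01% of all probes, and for 0 of 12 the slides lay that far apart the other way, where 1.90% of all probes did. Among the 7 were UROS of haem synthesis, the erythropoietin receptor EPOR, the transferrin receptor TFRC, the Rh blood group gene RHCE, the lipoxygenase ALOX15 and the catalase CAT. UROS read 3.81 on WT 1, 6.86 on WT 2 and 7.06 on WT 3, with 4.14 on KO. RHCE, which like KLF1 is a gene of the red cell lineage, read -3.22, 4.58, 4.69 and 0.60 in the same order. For the 7 genes WT 3 minus WT 2 ran from 0.12 for RHCE to 1.49 for ALOX15, and ALOX15 was the only gene of the list at least 2-fold higher on WT 3.

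Among the largest KO minus WT differences of that list were those of ALOX15 at -3.66, TFRC at -2.72, EPOR at -2.33 and UROS at -1.77. Their adjusted limma p lay between 0.464 and 0.667, and the list had 0 of 12 called, with 1 gene higher and 0 lower at an unadjusted limma p under 0.05. The higher gene was STAT5A, named here to account for that count. Of all probes, 5.33% were higher and 5.95% lower in this way. The list's median difference was -1.08, and 0.29 within slide 1. EPOR read 0.24 on WT 1 and -0.16 on KO, and TFRC read -2.65 and -3.69, so neither was higher on KO within slide 1. RHCE was higher on KO than on WT 1 by 3.82. In the list 3 genes were at least 2-fold above WT 1, beside 7.94% of all probes, and 2 at least 2-fold below, beside 8.07%. Most genes of this list, TFRC, CAT and the kinase and STAT genes among them, are also used by other spleen cells.

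Other megakaryocyte and platelet genes came from a list of 57, of which 19 had a named probe, while PF4, GP1BA and GP5 were not analysed here. For 10 of the 19 both slide 2 arrays were above both slide 1 arrays, beside 34.4% of all probes, and for 2 by at least 2-fold, beside 7.01%. These were SELP, the adhesion receptor P-selectin of platelet granules and endothelium, and TUBB1, the platelet tubulin. SELP read -1.89 on WT 1, 1.94 on WT 2 and 4.42 on WT 3, with -1.02 on KO. TUBB1 read -5.18, -3.18, 0.24 and -4.47 in that order. As with PPBP, ITGA2B and GP1BB, WT 3 was far above WT 2 for both genes. At least 2-fold higher on WT 3 than on WT 2 were 5 of the 19 (ITGA2, VWF, SELP, TUBB1 and THBS1), beside 4.00% of all probes.

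The probe of ITGB3, the partner chain of ITGA2B, did not share the pattern. It read 9.53 on WT 1, 9.25 on WT 2 and 9.17 on WT 3, with 9.60 on KO. These values lay far above those of ITGA2B, which was highest on WT 3 at 4.33. Hybridisation of other RNAs to the ITGB3 probe was not tested, and ITGB3 is also made by macrophages and endothelium. In the list 0 of 19 genes were called between KO and WT, with 3 higher and 1 lower at an unadjusted limma p under 0.05. The largest differences were 3.14 for the thromboxane synthase TBXAS1, -2.76 for VWF, -2.51 for SELP, -1.77 for TUBB1 and -1.69 for ANGPT1, with adjusted limma p values of 0.369, 0.465, 0.716, 0.764 and 0.342. P2RY12 at 1.49 and TGFB1 at 1.37 complete the count of higher genes and were named after their values were seen. The counts of higher and lower genes stand beside 5.33% and 5.95% of all probes. TBXAS1, P2RY12 and TGFB1 are also made by macrophages. VWF, which endothelium makes too, was lower on KO than on WT 1 by a log2 difference of -1.61. The median difference of the list was -0.16, and 0.50 within slide 1.

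Genes of other cells differed between the arrays too. Of 20 granulocyte genes listed, 9 had a named probe, and 7 of the 9 were at least 2-fold higher on WT 3 than on WT 2, where 4.00% of all probes were. Both slide 2 arrays were above both slide 1 arrays for 4 of the 9, beside 34.4% of all probes. The list's median was -2.36 on WT 1, 1.93 on WT 2 and 4.47 on WT 3, with -0.16 on KO, the same order as PPBP. LTF, the lactoferrin of neutrophil granules, read -2.36, 2.03, 4.55 and -0.16. The cathelicidin genes PMAP-23 and PR39 were higher on both slide 2 arrays than on both slide 1 arrays as well. PR39 was well above background on only 3 arrays. S100A9 and S100A12 were instead higher on KO than on WT 2, and MMP9 was lower on both slide 2 arrays than on both slide 1 arrays. The red pulp macrophage median ran the other way, at 5.17 on WT 1, 4.85 on WT 2 and 4.04 on WT 3. It was 7.28 on KO over 6 measured genes, 0 of which limma called between KO and WT. CD163 was instead lowest on WT 1, at 3.46 against 4.82 on WT 2 and 4.66 on WT 3. SIGLEC1 was higher on WT 3 than on WT 2. At an unadjusted limma p under 0.05, 2 of the 6 were higher, where 5.33% of all probes were. Of the liver genes listed, ALB, TTR, TF and SERPINA1 stood apart on WT 2. APOA1 did not, at 3.44 on WT 2 and 3.62 on WT 3. ALB read 2.60 on WT 2, against -6.42 on WT 1, -5.05 on WT 3 and -1.64 on KO, and TTR read 2.37 there against -3.77 or less elsewhere. ALB and SERPINA1 were well above background on only 3 arrays and TTR on only 2, so their lowest values are not measured levels. KLF1 and HBE1 were as high on WT 3 as on WT 2, to within 0.61 log2 units. The part of these cells in the members' values was not tested, nor was that of the source of the liver transcripts on WT 2.

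**Figure D4:**
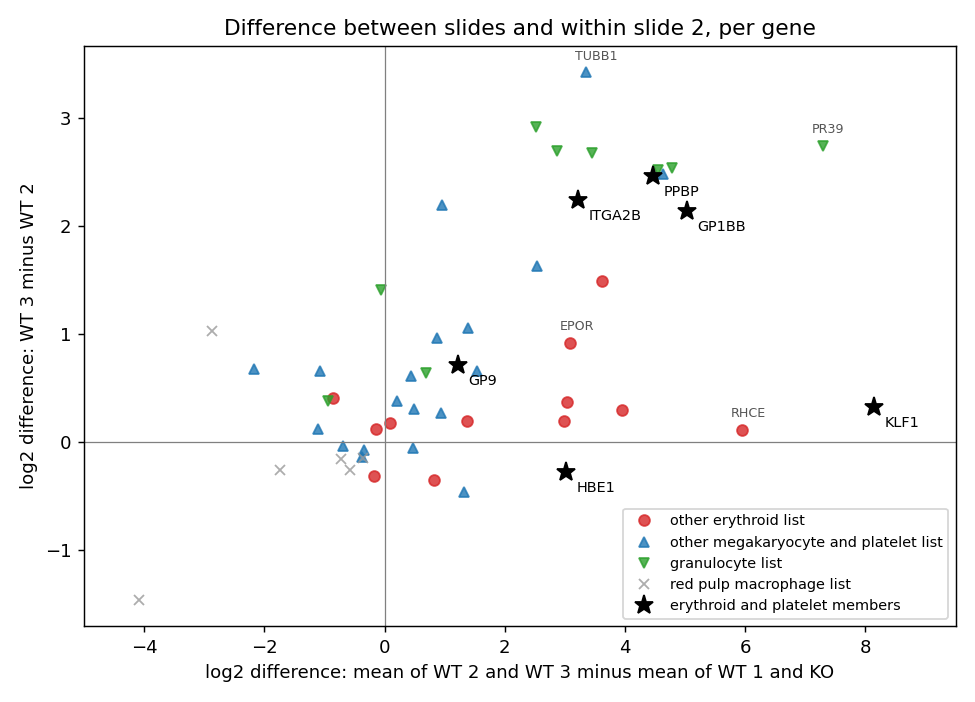
Mean of WT 2 and WT 3 minus the mean of WT 1 and KO (horizontal axis, log2) against WT 3 minus WT 2 (vertical axis, log2) for the members (stars) and for genes of 4 lists, with 1 point for each gene. KLF1, HBE1 and RHCE lie to the right near a vertical value of 0, while PPBP, ITGA2B and GP1BB lie to the right and above 2, among granulocyte genes.

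The genes most like each member were found by centring every gene on its mean over the 4 arrays and taking the mean absolute difference from the member, over 2431 other named genes well above background on all arrays. With 4 points this is only a description. PPBP lay closest to LTF at 0.04 log2 units, then to CMTM5 at 0.30 and PMAP-23 at 0.33. GP1BB lay closest to LY6G6F at 0.17, SELP at 0.19 and CMTM5 at 0.25, and ITGA2B to PGLYRP1 at 0.12, FGFBP3 at 0.22 and PTI at 0.31. Among the genes so compared KLF1 had no near neighbour, with NPG4 at 0.95, LGALS7 at 1.09 and RHCE at 1.13. Genes not well above background on slide 1 were left out, so a likeness of KLF1 to them was not tested. HBE1 lay closest to SNCG at 0.19, SPEF2 at 0.23 and UPK2 at 0.30, and GP9 to EIF4EBP2 at 0.08, GJA4 at 0.10 and LOC595122 at 0.13. Among the members themselves, PPBP and GP1BB were the closest pair at 0.56, and KLF1 and GP9 the farthest at 3.47. KLF1 and HBE1, both of the red cell lineage, stood 2.57 apart, and KLF1 spanned 9.06 log2 units over the WT arrays and HBE1 4.17.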

How the data were processed

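Spleen RNA was amplified, labelled with Cy3 and hybridised by the authors to 4 arrays. The authors extracted the deposited intensity values with Agilent Feature Extraction 11.0.1.1, and the processed signal is corrected for background and not normalised between arrays. The file headers list 1 channel, whereas the methods describe a dye pair. The deposited series table holds log2 values of 27421 probes, equal to quantile-normalised signals to a median of 0.00018, and served as an alternative.

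Outlier spots were left out, which removed 28 probes. The log2 signal minus the array's 75th percentile was used, and 33469 probes well above background on at least 1 array were tested, 27403 of them on all 4. Probes were named through transcript accessions (Sscrofa11.1), which gave 6686 of 43603 a symbol. The files name no genome build, so no coordinates are printed. For genes with several probes, the brightest stood for the gene in lists. A probe not well above background has a bound, taken as the lowest well-detected signal of that array or its own value, whichever is higher.

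The contrast of KO with WT was fitted in R 4.3.3 with limma 3.58.1 (lmFit, eBayes, two-sided, Benjamini-Hochberg over all probes), with 2 residual and 1.93 prior degrees of freedom. KO has no replicate and was assumed to vary like WT. The design text calls the WT arrays independent experiments, but nothing states that they came from separate animals. The p-values thus measure only the spread between these arrays, and its part between animals cannot be told. WT 2 and WT 3 shared a slide, yet ALB read 2.60 and -5.05 there, far beyond the median variation of 7.48% between replicate spots. An exact permutation test over 4 arrays cannot give a p below 0.25. The small number of arrays limits the precision. The fit was also run on simulated data. These had no slide effect and the same spread for KO and WT, so they cannot check either point in the real arrays. Members and gene lists (erythroid, megakaryocyte and platelet, stem and progenitor, granulocyte, red pulp macrophage, B cell, T and NK cell, spleen, cell cycle, other organs) were chosen with earlier results of these data known. The genes named were all members, the 5 largest differences in each lineage list, the partner genes of the members and the 3 genes most like each member; others are marked. Some genes of these lists are not reported here by name, and the counts and medians of the lists include them. Alternatives were normexp (on median signals, since the files hold no mean signal, offset 50), quantile and median scaling, another percentile, the filter on dim probes, slide as a block, each WT array left out, the deposited table, eBayes with a trend and the methods' t-test. Tables were made with pandas 2.3.3 and numpy 2.4.6 under Python 3.11.15.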

Additional observations from a re-analysis of the deposited data

How the results depend on the processing

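Member probes called between KO and WT numbered 0 under every alternative tried. Over all probes, limma called 0 in most settings, 4 under normexp and 6 under eBayes with a trend, and the methods' t-test called 1333 at an unadjusted p, which follows from its missing adjustment. With the slide as a block the median difference turned to 1.00 for the member genes, 0.29 for the erythroid list and 0.50 for the megakaryocyte and platelet list, since that fit compares KO with WT 1 alone. The last list also turned to 0.086 under the median shift, which moved the median over all probes tested from -0.11 to 0.13. Leaving out WT arrays in turn moved the median of the member genes between -3.30 and -1.01, that of the erythroid list between -2.04 and -0.38, and that of the megakaryocyte and platelet list between -0.46 and 0.21. Of single members, the slide block turned KLF1 (brighter probe) to 1.51, HBE1 to 2.03, PPBP to 2.17 and GP1BB to 0.50. HBE1 ran from -1.99 without WT replicate 1 to 0.089 without WT replicate 2, and PPBP from -3.39 without WT replicate 1 to 0.0073 without WT replicate 3. The counts of member probes by slide, by WT 3 against WT 2 and by KO against WT 1 were repeated under 5 scalings chosen after seeing the data, and KO was at least 2-fold above WT 1 on 2 probes under normexp and on 3 in the others. No paired analysis was possible because the KO title carries no replicate number. Signals near the lowest well above background limit the KLF1 values on WT 1 and KO.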

Other observations

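Of 16 genes of stem and progenitor cells listed, 6 had a named probe and 5 were tested. KIT, the stem cell factor receptor, read 2.70 on WT 1, 2.84 on WT 2 and 3.43 on WT 3, with 2.94 on KO. GATA2, a factor of early progenitors and mast cells, read 0.90, 1.27, 1.24 and 0.96 in that order. CD34, also made by endothelium, read 0.05, 0.54, 0.85 and -0.62, and differed between KO and WT by -1.10 (limma, adjusted p = 0.457). The list's median was 0.90 on WT 1, 1.27 on WT 2 and 1.24 on WT 3, with 0.96 on KO.

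Cell cycle genes had medians of 2.23 on WT 1, 2.81 on WT 2 and 3.03 on WT 3, with 1.29 on KO, and 7 of the 8 measured were higher on both slide 2 arrays than on both slide 1 arrays, where 34.4% of all probes were. B cell genes had medians of 1.09, 0.14, 0.41 and -3.95 over 4 measured genes in the same order. KO was below all WT arrays on 3 of the 4, where 34.9% of all probes were. It was above them on 1, CD72, where 27.0% were. T and NK cell genes had medians of 2.29, 1.68, 0.17 and 2.24 over 11, and genes of other organs -6.42, 2.37, -4.64 and -3.43 over 9. Of those 9 genes of other organs, only 4 were well above background on every array.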
